A study of Rattus norvegicus with 18 samples.

Results

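The regions described here are 1000 bp tiles of the rat genome (build rn6, chromosomes 1 to 20) that hold few measured cytosines, carry low methylation and lie far from any dense stretch of cytosines. A tile was taken when it held 3 to 15 measured cytosines, when its mean level over all cytosines and all 18 rats was 10 to 50%, and when no tile within 5 tiles on the same chromosome held 40 or more cytosines. A row of the table is a cytosine of a CpG on 1 strand, so a CpG measured on both strands gives 2 rows. The rule found 10219 tiles of 189161 tiles with any measured cytosine on these chromosomes, and of 147493 tiles with at least 3. They hold 73416 cytosine rows. The tiles were chosen by their measured methylation levels in these rats, so their low level is a description and not a finding.

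The levels came from reduced representation bisulfite sequencing, in which the enzyme MspI cuts DNA at CCGG and bisulfite then makes unmethylated cytosines read as thymine. All rats were adult male Sprague-Dawley rats, and the DNA was from left hippocampus. Of the 18 rats, 4 sham and 4 seizure rats belong to a model of electrical kindling inside the hippocampus. The other model, in which kainic acid was given systemically, has 7 sham and 3 seizure rats. Kindling means repeated stimulation through a hippocampal electrode until it evokes full seizures, and kainic acid is a glutamate receptor agonist that was injected in steps until status epilepticus began. The seizure rats of both models carry the label of 3 class V seizures (generalised motor seizures), and tissue was taken 24 hours after the last seizure. The labels do not say what the sham rats of either model underwent. They list each rat as a separate sample. Sham groups were separate in the 2 models, so model and cohort cannot be told apart between them.

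In mammalian tissue most CpGs are methylated. CpG islands, which are dense in CpGs and often hold promoters, stay unmethylated. Away from islands, local dips of intermediate methylation are known from many tissues and often lie at distal regulatory elements such as enhancers, where bound transcription factors go with lower methylation. Such dips differ between neurons and glia in brain. A level in whole hippocampus is an average over its cells, so that a different share of cells of a type and a different level within cells cannot be told apart. No chromatin data and no gene annotation of build rn6 were used here, so the tiles' place in genes and their use as regulatory elements were not examined, and no sequence is shown.

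Among 105162 sparse tiles far from dense ones, low methylation was the uncommon state. The 10219 tiles of 10 to 50% made up 9.72% of them. A further 1699 tiles were below 10%, 46494 were above 50 and up to 90%, and 46750 were above 90%. Within the low-methylated tiles the count grew with the level: 1643 stood at 10 to 20%, 2327 at 20 to 30%, 2788 at 30 to 40% and 3461 at 40 to 50%. The median level was 34.4%. At the limits of the rule there was no natural edge: 564 tiles lay within 1 point inside a limit and 588 within 1 point outside. The tile nearest inside the lower limit, chr3:140274001-140275000, had 10.0003%, and the tile nearest outside, chr13:98549001-98550000, had 9.9972%. At the upper limit chr4:30807001-30808000 had 49.9984% and chr3:171639001-171640000 had 50.0011%.

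A typical tile rested on little sequence. The median was 6 cytosine rows (quartiles 4 and 10) with 91 bp from the first to the last, so a tile samples a short piece of its 1000 bp. The tiles were found on every autosome. Their share of sparse far tiles ran from 7.97% on chromosome 15 to 11.7% on chromosome 12. It was also larger nearer to dense tiles. The share was 11.6% at 6 to 10 tiles from a dense tile, 10.1% at 51 to 100 tiles and 8.39% beyond 100 tiles. The median distance to a dense tile was 60 tiles, against 73 for the other sparse far tiles.

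Inside the tiles, the same mean level came about in different ways. The difference between the highest and the lowest cytosine mean of a tile had a median of 35.7 points and quartiles of 17.2 and 86.8 points. By limits set after these spreads had been seen, 3 kinds were described. In 3062 tiles (29.96%) all cytosines lay within 20 points of each other, and these are called uniform. In 2436 tiles (23.8%) at least 1 cytosine was under 10% and at least 1 was over 90%, and these are called mixed. The other 4721 (46.2%) are called graded. Every cytosine stood at 10 to 50% in 2867 tiles (28.1%), so in most of the tiles the label of low methylation holds for the mean and not for each cytosine.

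The kinds also differed in level, length and spread. Uniform tiles had a median level of 29.0%, 4 rows and a range over the 18 rats of 17.2 points. Graded tiles had 39.2%, 6 rows and 14.9 points. Mixed tiles had 30.4%, 9 rows and 4.26 points. The kinds were set by the spread of cytosine means, which was larger in tiles of more rows. Its median was 18.7 points at 3 to 4 rows and 81.8 points at 10 to 15 rows. The median range over rats was 17.3 and 9.56 points in the same tiles. Rows and ranges of the kinds thus depend in part on how the kinds were defined, and are a description. The 3 tiles of narrowest range among those with at least 8 rows were all mixed. One of them, chr4:73173001-73174000, held cytosines from 0 to 98.3% and stood at 16.1 to 17.4% in all 18 rats.

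**Figure D1:**
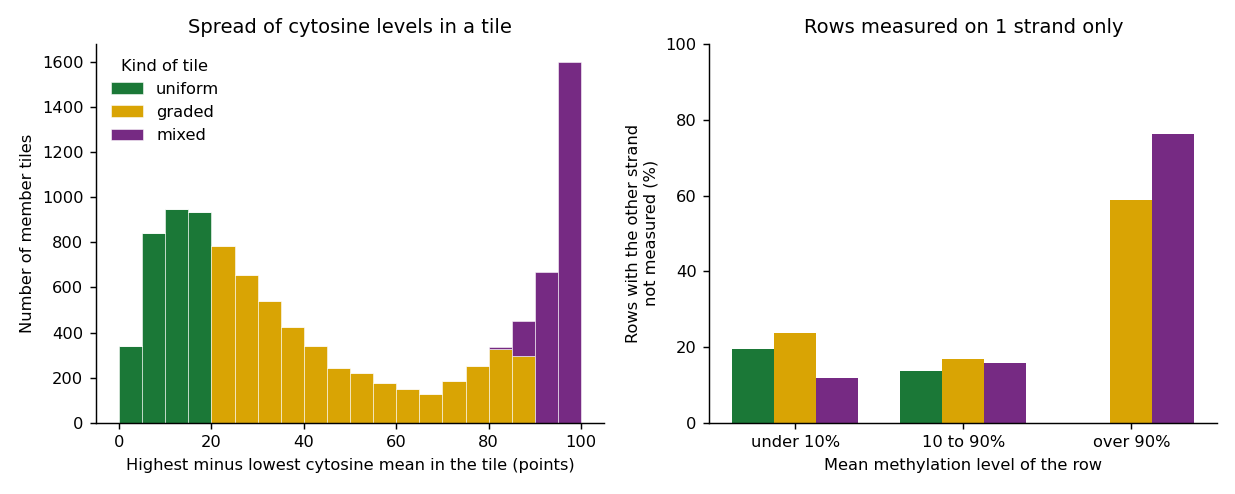
Left, number of low-methylated tiles by the difference between their highest and lowest cytosine mean (percentage points), coloured by kind; right, percent of cytosine rows whose partner on the other strand was not measured, by mean level of the row and kind of tile. The count is lowest between 65 and 70 points and has its largest bar at 95 to 100 points (1599 mixed tiles), and rows over 90% in mixed tiles lacked a measured partner in 76.4% of cases.

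The methylated cytosines of the mixed tiles had an unusual place. Of their 5024 rows over 90%, 3836 (76.4%) had no measured partner on the other strand, against 11.7% of their rows under 10%. In sparse far tiles over 90%, the share of rows over 90% without a partner was 11.1%, and in those of 50 to 90% it was 18.9%. Of the 3836 rows, 2797 (72.9%) were the first or the last row of their tile. Of all rows under 10% in mixed tiles, with or without a partner, 9.35% were. The share among rows under 10% without a partner is not given here. The median of the shortest distance between a row under 10% and a row over 90% in a mixed tile was 13 bp. The 2839 sparse low tiles that lie within 5 tiles of a dense tile had the same feature, with 76.6% of their rows over 90% lacking a partner. Whether these rows stem from the ends of the MspI fragments was not tested.

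This feature bears on which tiles count as low-methylated. With only the rows that have a partner on the other strand, 2665 of the uniform tiles (87.0%) stayed at 10 to 50%. So did 3926 of the graded tiles (83.2%), but only 907 of the mixed tiles (37.2%). These shares count tiles that had no such row, which were 362 uniform, 570 graded and 121 mixed tiles. Of the uniform tiles, 20 stood under 10% and 15 over 50% on such rows. Of the graded tiles, 65 stood under 10% and 160 over 50%. Of the mixed tiles, 1367 fell under 10% on such rows. Over all kinds, 7498 tiles (73.4%) stayed, 1452 were under 10%, 216 were over 50% and 1053 had no such row. When the tiles were found anew from paired rows alone, 7893 were found, of which 6895 are among the 10219. On CpGs measured on both strands the strands gave like values: their means differed by more than 20 points in 132 of 29131 CpGs (0.453%), against 0.625% in sparse far tiles of 50 to 90%.

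The tiles were chosen for a low level, so levels around them are given as a description. Where the next tile held measured cytosines (2836 tiles on the left, 2747 on the right), its median level was 55.4% on the left and 55.1% on the right, and at 2 tiles away it was 81.7 and 80.9%. Around the uniform tiles the level was 59.19 and 60.05% in the next tile. Around the mixed tiles it was 31.3 and 28.1%, which is as low as in these tiles themselves. Sparse far tiles of 50 to 90% had neighbours at 84.5 and 84.7%. Adjacent tiles that all met the rule were uncommon: 1098 tiles (10.7%) stood in 542 runs of at least 2.

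**Figure D2:**
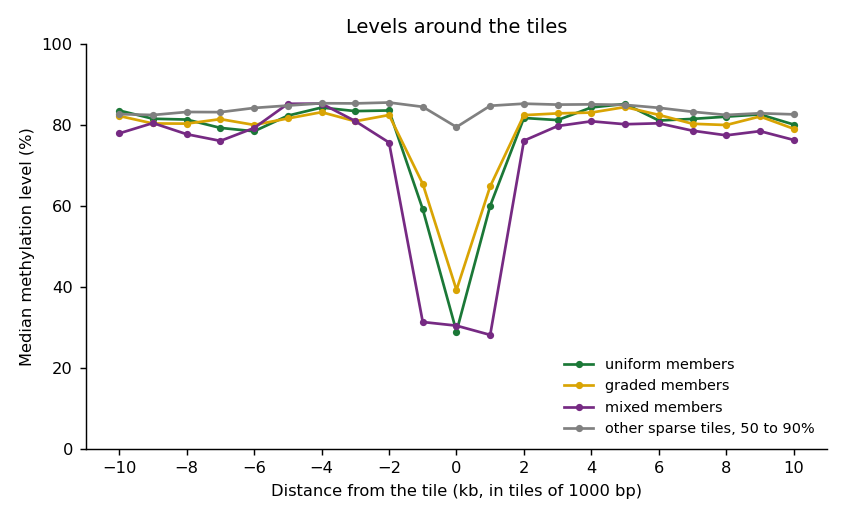
Median methylation level (%) of measured tiles at each distance (kb) from the low-methylated tiles by kind, and from other sparse far tiles of 50 to 90%. From 2 tiles away, medians around uniform and graded tiles are 78.4% or more, while next to mixed tiles the medians are 31.3 and 28.1%.

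The longest runs held 4 tiles. The run chr10:107514001-107518000 had tile levels that differed more along the run than between rats. In the 7 kainic acid sham rats its medians were 30.6, 26.4, 35.9 and 12.9%, and the tile to its left stood at 84.1% and the one to its right at 93.8%. The last 2 of its tiles were mixed. The run chr19:16731001-16735000 had medians of 16.4, 19.5, 43.9 and 14.3% in the same rats, and next to it on the left was a tile of 26 rows at 8.90%. Neither run held a tile at an unadjusted p under 0.05 in a seizure comparison (limma) among those tested.

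Over all 10219 tiles, the rats of the 4 groups had like means. The kindling sham rats 1 to 4 stood at 32.4, 31.5, 34.2 and 33.7%, and the kindling seizure rats at 32.9, 31.8, 33.3 and 34.1%. The kainic acid sham rats ranged from 32.5 to 33.6% with a median of 33.3%, and the kainic acid seizure rats stood at 32.9, 34.1 and 33.9%. The groups overlapped in both models. Group means were 32.9 ± 1.26% (SD, n = 4) for kindling sham, 33.0 ± 0.949% (n = 4) for kindling seizure, 33.2 ± 0.403% (n = 7) for kainic acid sham and 33.6 ± 0.614% (n = 3) for kainic acid seizure. Seizure minus sham came to 0.0814 points for the kindling model and 0.470 points for kainic acid, the first well under the SD of its groups and the second close to it. Since the tiles were chosen with earlier results of these data known, no p is given for these means. The kindling difference changed sign when single rats were left out (−0.412 to 0.519 points). The kainic acid difference stayed at 0.253 to 0.821 points and was above 0 on all 20 chromosomes (0.245 to 0.752 points), which share the same rats.

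Those small differences were set beside those of other sparse tiles. Sparse far tiles of 50 to 90% had seizure minus sham differences of 0.339 and 0.352 points in kindling and kainic acid. Sparse low tiles near dense ones had 0.407 and 0.466 points, and sparse far tiles above 90% had 0.111 and 0.0477 points. The kindling difference of the low-methylated tiles (0.0814 points) was smaller than each of these. Their kainic acid difference (0.470 points) was larger than each, though close to that of the low tiles near dense ones. By kind, the kainic acid difference was 0.505 points in uniform, 0.488 in graded and 0.389 in mixed tiles, and the kindling difference was −0.212, 0.164 and 0.291 points. The share of values at exactly 0 in the tiles grows where few reads lie behind a value. Its mean was lower in the seizure group of each model. It was 5.89 ± 2.20% in kindling sham, 4.42 ± 1.64% in kindling seizure, 4.32 ± 1.12% in kainic acid sham and 3.30 ± 0.636% in kainic acid seizure rats. Sham and seizure rats overlapped in this share in both models, at 3.20 to 8.59% and 3.05 to 6.78% in kindling. In kainic acid they stood at 2.91 to 6.52% and 2.78 to 4.01%. The part of this share in the differences was not tested.

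**Figure D3:**
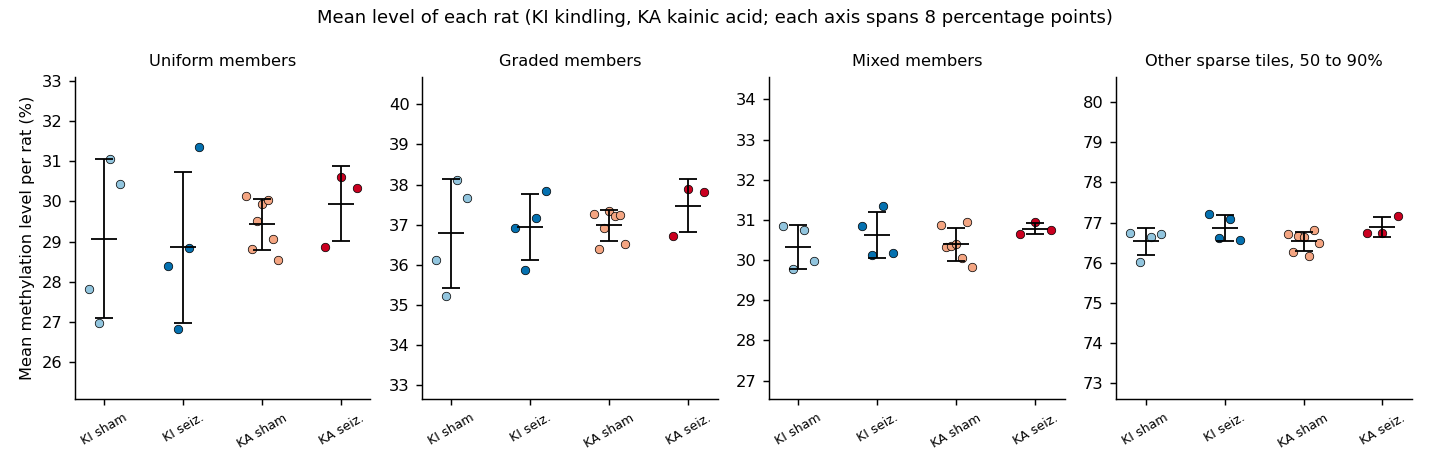
Mean methylation level (%) of each rat over uniform, graded and mixed low-methylated tiles and over other sparse far tiles of 50 to 90%; points are rats, bars are group mean and SD, and each axis spans 8 percentage points and does not start at 0. In uniform tiles the rats spread from 26.8 to 31.4%, in the 50 to 90% tiles from 76.0 to 77.2%, and the groups overlap in every panel.

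Rats of the same group differed from each other in these tiles. Over uniform tiles the 8 rats of the kindling model ranged from 26.8 to 31.4%, and both the lowest and the highest were seizure rats. The first principal component of the tile levels held 21.5% of the variance over the 10219 tiles, 25.7% over the uniform ones and 15.2% over sparse far tiles of 50 to 90%, which share no tile with the low-methylated ones. The rats' scores on it were alike in both sets. Kindling seizure rat 4 scored 0.506 over the low-methylated tiles, and the other 3 kindling seizure rats scored −0.261, −0.377 and −0.297. In kindling sham, rats 3 and 4 scored 0.302 and 0.204, and rats 1 and 2 scored −0.297 and −0.199. The kainic acid sham rats scored −0.0901 to 0.214 and the seizure rats −0.234, 0.158 and 0.0696. Sham and seizure scores overlapped in both models, and no test of group against score was run. Scores over the 50 to 90% tiles (0.528 against −0.289 to −0.383 in the seizure group) put the same rat apart.

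The span of level fitted along this score is signed, so rises and falls offset each other in a median. The median span was 1.14 points over all low-methylated tiles, 5.55 in uniform, 2.47 in graded and −0.781 in mixed tiles. From the lowest-scoring to the highest-scoring rat, the fitted level was at least 10 points higher in 1520 tiles (14.9%) and at least 10 points lower in 587 (5.74%). In uniform tiles the counts were 857 (28.0%) and 217 (7.09%), and in mixed tiles 14 and 8. In tiles of 50 to 90% the shares ran the other way, with 3.25% higher and 5.37% lower. The SD of the difference between strands, another value that grows where reads are few, was 10.8 and 11.3 points in kindling sham rats 3 and 4 and 10.3 points in seizure rat 4. In the other 5 kindling rats it was 8.17 to 9.36 points. Its part in the score was not tested.

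The comparison of each seizure group with its sham group asks whether the seizures of a model go with other levels at these tiles. Of the 10219 tiles, 8725 had a range over the 18 rats of at least 5 points and were tested in a fit over all 84585 such tiles of the genome, which used limma with Benjamini-Hochberg adjustment. In kindling, 0 of 8725 tiles had an adjusted p under 0.05 (smallest 0.682), and 0.0% of all tiles did. An unadjusted p under 0.05 was found in 479 tiles (5.49%), against a background of 5.71% of all tiles. Of these, 266 were higher in seizure rats (3.05%, background 3.59%) and 213 were lower (2.44%, background 2.12%). The share was thus near the background, and the count is not a result about these tiles. It rested on the rats that entered: without kindling seizure rat 4 the count was 1016 (11.6%, of all tiles 9.36%), 486 higher and 530 lower. That is 47.8% higher in these tiles and 63.5% higher over all tiles at such a p, and the difference between these shares was not tested. Without kindling seizure rat 2, 1 tile was called, and the share of all tiles called in that setting is not given here. The median width of the 95% interval to either side of a tile's difference was 5.79 points.

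For kainic acid, 0 of 8725 tiles had an adjusted p under 0.05 in the same limma fit (smallest 0.9999, background 0.0%). An unadjusted p under 0.05 was found in 291 tiles (3.34%, background 3.54%). Higher tiles outnumbered lower ones by more than they did over the genome: 216 were higher (2.48%, background 2.13%) and 75 were lower (0.860%, background 1.41%). That is 74.2% higher in these tiles and 60.2% over all tiles, and the difference between these shares was not tested. The lean was not particular to these tiles. Of tiles at such a p, 33 of 45 were higher among sparse low tiles near dense ones. Among sparse far tiles under 10%, 29 of 32 were higher. It was 971 of 1581 among sparse far tiles of 50 to 90%, and 258 of 578 among those above 90%. A fit within the kainic acid rats alone gave 487 of the low-methylated tiles (5.58%, of all tiles 4.67%). The score of the first principal component as a covariate gave 476 (5.46%, of all tiles 4.44%). That score was taken over the sparse far tiles of 50 to 90%, of which 42711 are among all tiles tested. Over all members tested, 57.2% had a positive kainic acid difference, against 57.5% of all tiles. Differences of at least 10 points in either direction were seen in 167 tiles for kindling (1.91%, background 0.975%), 88 of them higher. For kainic acid they were seen in 94 tiles (1.08%, background 0.761%), 63 of them higher. Both shares were above the background, and these tiles also varied more between rats of a group: the median SD within groups was 3.68 points, against 2.88 points in sparse far tiles of 50 to 90%. The part of that spread in the counts was not tested.

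The remaining contrasts of the same limma fit gave 0 tiles at an adjusted p under 0.05 as well, with a background of 0.0% in each. For the mean of both seizure differences the smallest adjusted p was 0.99, with 386 tiles at an unadjusted p under 0.05 (4.42%, background 4.56%). Without kindling seizure rat 4 there were 848 (9.72%, of all tiles 8.08%). With all rats, 269 were higher (3.08%, background 3.07%) and 117 lower (1.34%, background 1.48%). When the kindling difference was subtracted from that of kainic acid, the smallest adjusted p was 0.585, and 407 tiles passed unadjusted (4.66%, background 4.75%). There 237 were higher (2.72%, background 2.3%) and 170 lower (1.95%, background 2.45%). Kainic acid sham minus kindling sham gave 0.259, with 460 tiles (5.27%, background 6.35%), of which 270 were higher (3.09%, background 3.28%) and 190 lower (2.18%, background 3.07%). Without kindling sham rat 2, 1 tile was called between the sham groups, and the share of all tiles called in that setting is not given here. In this fit of all rats, each share over both directions was below its background. Some other fits of all rats gave shares above the background. With the principal component score as a covariate, the share was 7.22% in kindling, against 6.89% of all tiles. Between the sham groups that fit gave 7.43%, against 7.80% of all tiles. Without kindling seizure rat 4 the share for the mean was above its background.

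Single cytosines gave the same picture. Of the cytosines in these tiles, 54887 had a range of at least 10 points and were tested with limma among 794376. None, 0 of 54887, had an adjusted p under 0.05 in any of the 5 contrasts, where the background was 0.000629% for kainic acid and for the difference between models and 0.0% for kindling. At an unadjusted p under 0.05 there were 3178 cytosines in kindling (5.79%, background 5.72%) and 2101 in kainic acid (3.83%, background 3.82%). The mean of both models gave 2648 (4.82%, background 4.74%), the difference between models 2587 (4.71%, background 4.63%) and the sham groups 3348 (6.10%, background 6.16%). Leaving out single rats gave at most 3 called cytosines in kindling (without sham rat 1 or 2), 2 for the difference between models (without kindling seizure rat 2) and 7 between the sham groups (without kindling sham rat 2). The shares of all cytosines called in these settings are not given here, so these counts are not a result about these tiles.

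**Figure D4:**
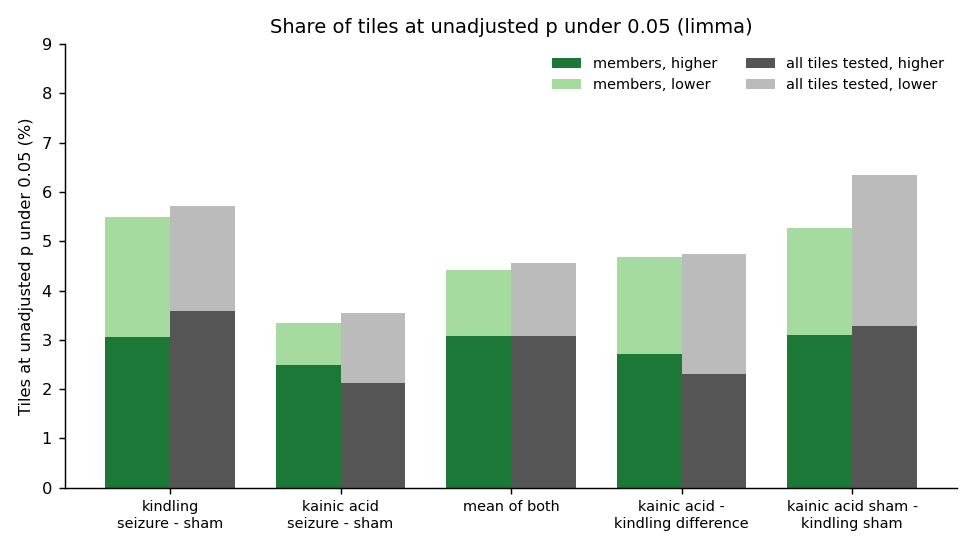
Percent of tiles at an unadjusted p under 0.05 (limma) in 5 contrasts, split into higher and lower, for the low-methylated tiles (green, 8725 tested) and for all tiles tested (grey, 84585). The bars of both sets have like heights in each contrast, for example 5.49 and 5.71% in kindling, and the lower part is smaller for the low-methylated tiles in kainic acid (0.860 and 1.41%).

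The tiles of smallest p are given as values, since none passed the adjusted threshold. For kindling, the higher tile of smallest p was chr2:104935001-104936000, a uniform tile of 3 cytosines. It stood at 50.3, 36.8, 39.1 and 48.8% in the sham rats and at 51.3, 58.5, 63.0 and 61.2% in the seizure rats. The groups did not overlap, but the highest sham rat came close to the lowest seizure rat. The difference was 14.7 ± 3.09 points (SE; unadjusted p 0.000153, limma adjusted p 0.682). In kainic acid the tile stood at 41.5 to 51.5% in sham (median 46.5%) and at 53.1, 48.0 and 51.2% in seizure rats, which overlap.

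Another uniform tile, chr5:47416001-47417000, had 6 cytosines, of which all 6 were higher in kindling seizure rats. The sham rats stood at 35.9, 32.9, 47.9 and 36.3% and the seizure rats at 52.8, 48.5, 54.4 and 57.1%. Sham rat 3 came close to the lowest seizure rat. The tile chr9:113942001-113943000 had 15 cytosines, all 15 higher in kindling seizure rats, at 9.07, 5.66, 11.5 and 12.9% in sham and 22.8, 15.9, 14.3 and 21.5% in seizure rats. It was the named kindling tile with the most cytosines. Kainic acid groups at that tile had nearly the same mean, 13.4 ± 2.91% (n = 7) and 13.9 ± 2.12% (n = 3).

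Among the lower tiles in kindling, chr10:58341001-58342000 had the smallest p. Its 6 cytosines were all lower, and it stood at 26.6, 21.8, 25.8 and 23.9% in sham and 17.9, 16.6, 17.9 and 12.2% in seizure rats. Its right neighbour stood at 88.6%, so the tile lies beside methylated sequence. The difference was −8.41 ± 1.71 points (SE; limma adjusted p 0.682). The tile chr3:161791001-161792000 stood at 33.5, 32, 35.7 and 43.7% in sham and 19.1, 21.1, 28.4 and 22.9% in seizure rats, and all 4 of its cytosines were on the minus strand. In kainic acid the same tile had means of 28.3 ± 3.84% (n = 7) and 27.8 ± 5.45% (n = 3).

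Sham and seizure groups did not overlap in kindling in 171 of the 8725 tiles (1.96%, background 2.44%), and in kainic acid in 110 (1.26%, background 1.49%). All 10 tiles named for kindling were among the 171, with differences of 6.08 to 15 points in size. Only 1 of them, chr3:129012001-129013000, was also without overlap in kainic acid. It stood at 19.5, 17.5, 12.6 and 18.9% in kindling sham, 22.7, 22.4, 22.1 and 25.6% in kindling seizure, 16.1 to 20.8% in kainic acid sham (median 18.2%) and 20.9, 21 and 20.9% in kainic acid seizure rats. The kainic acid gap was thus far smaller than the spread of the sham rats. The kindling tiles were chosen for their p in kindling, so their lack of overlap there is a description.

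For kainic acid, the higher tile of smallest p was chr5:156885001-156886000, a mixed tile of 6 cytosines whose means ran from 0.923 to 97.8%. It stood at 17 to 20.9% in sham (median 18.3%) and at 23.4, 22.9 and 24.7% in seizure rats, without overlap, a difference of 5.29 ± 1.18 points (SE; limma adjusted p 0.9999). Kindling rats stood at 17.7 to 21.9% there. The kainic acid difference of this tile was 6.32 points over its 5 plus-strand rows and 0.123 points at its 1 minus-strand row. A uniform tile, chr10:95520001-95521000, had 8 cytosines that were all higher in kainic acid seizure rats. It stood at 11.7 to 15.1% in sham (median 13.4%) and at 18.1, 18 and 22.4% in seizure rats.

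The tile of largest difference among those named for kainic acid, chr16:21255001-21256000, had rats at separate levels in several groups. Its 5 cytosines stood at 32 to 33.7% in 6 kainic acid sham rats and 53.3% in rat 5, and at 75.3, 56.3 and 53.7% in the seizure rats. The kindling sham rats stood at 61.0, 31.7, 59.4 and 31.7% and the kindling seizure rats at 32.8, 30.1, 36.7 and 31.2%. Sham rats of both models thus stood at both a lower level of 31.7 to 33.7% and a higher one of 53.3 to 61%. The kainic acid difference was 25.9 ± 6.33 points (SE; limma adjusted p 0.9999).

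Of the lower tiles in kainic acid, chr12:41859001-41860000 had the smallest p, and its groups overlapped. It stood at 35.5 to 59.5% in sham (median 50.4%) and at 43.6, 32.1 and 29.7% in seizure rats, and all 4 of its cytosines were lower. In kindling the difference had the other sign, from 37.8 ± 5.31% to 48.5 ± 3.8% (SD, n = 4 each). The tile chr7:80796001-80797000 was without overlap in both models and in opposite directions. It stood at 34.7, 34.1, 25.6 and 31.2% in kindling sham and 42.5, 40.8, 39.8 and 45.6% in kindling seizure rats. In kainic acid it stood at 33.3 to 48.4% in sham (median 41.4%) and at 32.9, 32.8 and 33.0% in seizure rats. It had the smallest p among these tiles for the difference between models, −18.5 ± 3.69 points (SE; limma adjusted p 0.585). Of the 10 tiles named for kainic acid, 7 were without overlap in that model, and the 10 had differences of 5.29 to 25.9 points in size. They too were chosen for their p, so this count is a description.

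For the mean of both models, 2 of the 5 higher tiles were chr2:104935001-104936000 and chr3:129012001-129013000 above, which kindling also named. The tile chr10:83414001-83415000 stood at 48.4, 37.9, 39.3 and 40.3% in kindling sham and 59.1, 60.6, 59.6 and 51.2% in kindling seizure rats. In kainic acid it stood at 36.5 to 58.1% in sham (median 49.4%) and at 54.3, 57 and 54.3% in seizure rats, which overlap. At chr3:161562001-161563000 the kainic acid groups did not overlap, with 21.4 to 36.6% in sham (median 27.5%) and 47.2, 41.4 and 55.0% in seizure rats. Its kindling groups overlapped, at 35.6, 34, 39.4 and 24.2% and at 53.3, 30.3, 36.3 and 52.2%. Among the lower ones, chr4:50336001-50337000 stood at 15 ± 2.65% against 9.39 ± 1.69% in kindling (n = 4 each). In kainic acid it stood at 13.7 ± 3.6% (n = 7) against 9.41 ± 4.39% (n = 3), and there the groups overlapped. The limma adjusted p was 0.99 for each of these tiles.

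The sham groups of the models gave the smallest p-values of all contrasts. At chr15:35323001-35324000, a graded tile of 5 cytosines, the kindling sham rats stood at 55.6, 46.8, 68.9 and 71.1%. The kainic acid sham rats stood at 21.9 to 25.2% except rat 6, at 43.3%. The kindling seizure rats stood at 46.4, 46.2, 24.0 and 44.2% and the kainic acid seizure rats at 23.9, 46.6 and 49.8%. Apart from kindling sham rat 1, rats thus stood at 21.9 to 25.2%, at 43.3 to 49.8% or at 68.9 to 71.1%, and the sham groups did not overlap (difference −34.5 ± 5.81 points, SE, limma adjusted p 0.259). At chr12:15111001-15112000 all 18 rats were nearer to each other. Kindling sham rats stood at 36.2, 32, 37.5 and 36.2%, and kainic acid sham rats at 19.97 to 30.5% (median 24.4%). Of its 11 cytosines 10 were lower in kainic acid sham, and the difference was −10.7 ± 1.87 points (SE; limma adjusted p 0.259).

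Levels in separate steps were also seen among the tiles of widest range. A range over the rats of at least 40 points was seen in 151 tiles (1.48%, against 1.02% of the sparse far tiles of 50 to 90%), and in 26 of these the rats left an empty gap of at least 20 points. Each of the 18 rats was the highest in at least 3 of these tiles and the lowest in at least 2. The highest rat of a wide tile was most often kindling sham rat 4 or kainic acid sham rat 5 (21 tiles each), and the lowest was most often kindling sham rat 2 (22 tiles). In 36 of the 151 tiles each of the 4 groups ranged over at least 20 points.

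The tile chr6:38714001-38715000, with 4 cytosines within 20 points of each other, shows such steps most plainly. Kindling sham rats stood at 0.532, 0.833, 46.5 and 56.5%, and kindling seizure rats at 92.6, 0.385, 48.3 and 96.1%. Kainic acid sham rats stood at 41.3, 2.88, 2.38, 40.7, 45, 2.59 and 52.5%, and kainic acid seizure rats at 2.51, 56.7 and 52.1%. So 7 rats were under 3%, 9 were between 40 and 57% and 2 were over 92%, with rats of every group at the low and middle levels. Among tiles of at least 8 rows the widest was chr4:112648001-112649000, a uniform tile of 8 cytosines between positions 112648011 and 112648044. It stood at 62.7, 81.1, 32.4 and 4.34% in kindling sham and 42.4, 37.4, 82.3 and 8.13% in kindling seizure rats. In kainic acid 6 of 7 sham rats stood at 40.9 to 45.4% and rat 3 at 73.1%, and the seizure rats at 84.8, 37.9 and 39.6%.

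A pair of CpGs on chromosome 4 showed opposite steps within the tile that starts at position 150231001, and were named by their cytosines' p in kindling. At position 150231073 (plus strand) the kindling sham rats stood at 67.1, 83.7, 88.6 and 49.3% and the seizure rats at 42.9, 0.735, 0.0 and 0.0%. At position 150231094, 21 bp on, they stood at 15.7, 3.17, 2.25 and 30.1% and at 37.2, 68.1, 73.5 and 77.3%. Rats that were high at the first position were low at the second, and rats of middle level at the first were of middle level at the second. The differences were −61.3 and 51.2 points, with a limma adjusted p of 0.558 each, and the minus strand gave −60.7 and 44.8 points. In kainic acid, 6 sham rats stood at 0.0 to 1.61% at the first position and 65.9 to 78.3% at the second, while rat 6 stood at 41.1 and 40.5%. The seizure rats stood at 5.06, 36.1 and 40.7% and at 69.1, 40 and 40.2%. A CpG at position 150231101 stood at 59.2 to 75% in all 18 rats. The mean of the tile hid the pattern, with a kindling difference of −4.62 points.

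**Figure D5:**
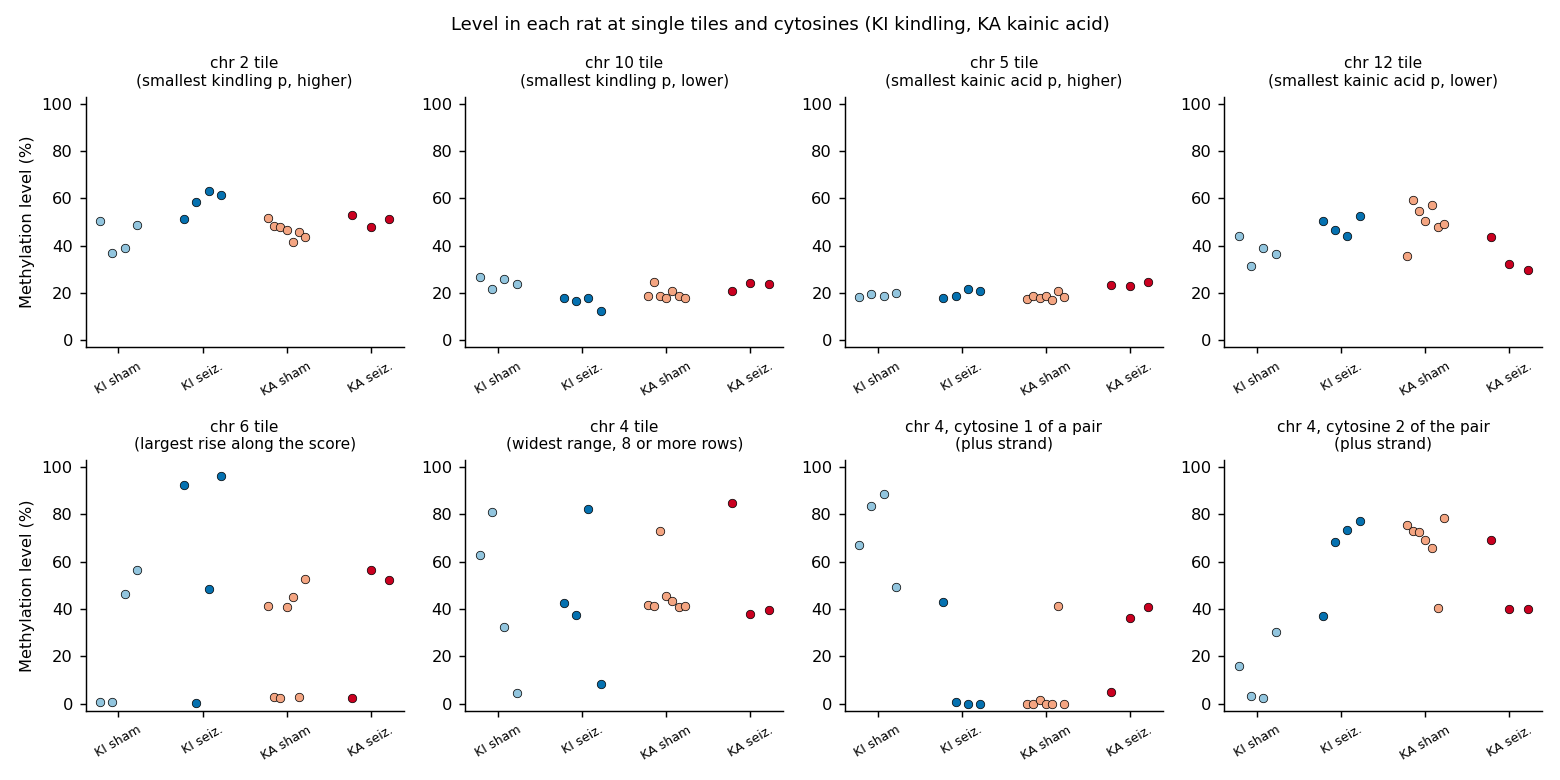
Methylation level (%) of each rat, by group, at 6 low-methylated tiles and at 2 cytosines 21 bp apart; points are single rats. The upper row holds tiles of smallest unadjusted p, and the lower row holds tiles and cytosines whose rats stand at separate levels in several groups, such as under 3, 40 to 57 and over 92% in the chromosome 6 tile.

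Other cytosines of smallest p often stood alone. The cytosine of smallest p among those higher in kindling, at chromosome 3 position 176079302, went from 10.9 ± 5.50% to 30.9 ± 6.72% (SD, n = 4 each, limma adjusted p 0.558). The other strand of the same CpG differed by −4.72 points. At chromosome 13 position 48717373, first among those higher in kainic acid, the mean was 18.9 ± 8.37% in sham (n = 7) and 40.5 ± 3.87% in seizure rats (n = 3), and the other strand differed by −1.04 points. By contrast, at chromosome 3 position 151141956 both strands were higher in kindling, by 31.5 and 28.6 points. That cytosine stood at 49.2 ± 16.7% in kindling sham and 80.7 ± 2.05% in kindling seizure rats, and at 77.9 ± 3.78% in kainic acid sham rats (n = 7). The mean of the kindling sham rats was thus below those of the other groups, at 78.7 ± 2.25% in kainic acid seizure rats (n = 3).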

How the data were processed

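Reduced representation bisulfite sequencing gave methylation levels in 18 rats. The deposited table gives, per the labels, a methylation fraction (beta value) for each cytosine and rat. Build rn6 and the tools Bismark, Bowtie2, methylKit, Trim Galore and FastQC are listed, without versions, per the submitters' processing notes, and no coverage filter is stated there. There are 0 missing values and no read counts, so depth is unknown, no interval is given for a single value, and no test on reads was run. All 18 value columns were matched to rats by library name.

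Levels were multiplied to percent and averaged per tile, each row weighing the same. Tiles with at least 3 rows and a range of at least 5 points, and cytosines with a range of at least 10 points, were tested on the fraction scale with limma 3.58.1 in R 4.3.3 (data.table version 1.17.8). The fit held all 4 groups (14 residual degrees of freedom, variance trend), with Benjamini-Hochberg adjustment over all units and a threshold of 0.05. It was tested on simulated data. P-values set a difference between groups against the spread between rats within groups. Figures used Python 3.11.15 and matplotlib 3.10.9.

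Named tiles were the 5 higher and 5 lower of smallest p for kindling, kainic acid and their mean, 3 and 3 for the other contrasts, the 3 widest and 3 narrowest of at least 8 rows, the longest runs and those nearest the limits. The 3 cytosines of smallest p in each direction, the chromosome 6 tile and the kinds of tile were chosen after values were seen. The tiles and lists were chosen with earlier results of these data known. Reference tables of another build were not used. The labels do not say whether replicate numbers pair rats, and the main fit did not pair them. Alternatives changed the rule, the filters, the scale, the tile grid, the strands and the rats, as described at the end.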

Additional observations from a re-analysis of the deposited data

Results flagged for a closer look

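Within groups of 4 to 10 rats, 165 sets of values were searched for a rat that stood apart by Dixon's criterion, which chance meets in about 1 in 20 sets, and 10 were found. Kindling seizure rat 4 was apart in 4 of them. Its score on the first principal component was 0.506 over the low-methylated tiles, with the next rat of its group at −0.261, and 0.528 over the sparse far tiles of 50 to 90%, with the next at −0.289. At chr10:83414001-83415000 it stood at 51.2% and the next rat at 59.1%, and at chr7:132342001-132343000 at 26.8% and the next at 27.6%.

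At chr15:35323001-35324000, kindling seizure rat 3 stood at 24.0% with the next rat of its group at 44.2%, and kainic acid sham rat 6 at 43.3% with the next at 25.2%. At chr16:21255001-21256000, kainic acid sham rat 5 stood at 53.3% and the next at 33.7%. Kainic acid sham rat 3 stood at 73.1% at chr4:112648001-112649000, with the next at 45.4%. Kainic acid sham rat 6 stood at 37.9% at chr10:107516001-107517000, with the next at 36.0%. Kindling sham rat 2 had a mean of 76.0% over the sparse far tiles of 50 to 90%, with the next at 76.6%.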

How the results depend on the processing

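No tile of these regions had an adjusted p under 0.05 (limma) under the alternatives that kept all rats, and no named tile changed direction or side of that threshold. No cytosine had one either, but the only such alternative run on cytosines was a range filter of 20 points. Leaving out single rats gave some calls, for which the shares over all tiles and all cytosines are not given here. The tiles called were 0 to 1 in kindling and 0 to 1 in kainic acid sham minus kindling sham. These were chr4:80734001-80735000 without kindling seizure rat 2 (−27.7 points, adjusted p 0.0324, against −18.4 points and 0.792 with it) and chr19:10488001-10489000 without kindling sham rat 2 (−19.2 points, adjusted p 0.0482, against −13.6 points and 0.507 with it). Cytosines called ranged from 0 to 3 in kindling (3 without sham rat 1 or 2, 2 without seizure rat 2), from 0 to 2 for the difference between models (1 without kindling sham rat 1 or 2 or kainic acid seizure rat 1, 2 without kindling seizure rat 2) and from 0 to 7 between sham groups (6 without kindling sham rat 1, 7 without kindling sham rat 2, 2 without kainic acid sham rat 6).

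With a rat left out, tiles at an unadjusted p under 0.05 ranged in kindling from 369 (4.23%, of all tiles 4.97%) to 1016 (11.6%, of all tiles 9.36%). In kainic acid they ranged from 255 (2.92%, of all tiles 2.88%) to 381 (4.37%, of all tiles 4.10%). For the mean it was 320 (3.67%, of all tiles 4.09%) to 848 (9.72%, of all tiles 8.08%). The difference between models gave 317 (3.63%, of all tiles 4.16%) to 608 (6.97%, of all tiles 5.82%). Between sham groups there were 425 (4.87%, of all tiles 6.23%) to 633 (7.26%, of all tiles 7.07%). The shares over all tiles thus moved as well. The highest kindling and mean counts were without kindling seizure rat 4, where 486 of 1016 kindling tiles were higher (47.8%), and 9.36% of all tiles passed. Of all tiles that passed there in kindling, 63.5% were higher. With at least 5 rows per tile, which leaves fewer tiles, the counts were 281, 170, 234, 235 and 289 in the same order (4.90, 2.96, 4.08, 4.10 and 5.04%, against 5.71, 3.54, 4.56, 4.75 and 6.35% of all tiles). For kainic acid a fit within the model gave 487 (5.58%, of all tiles 4.67%). With the principal component score as a covariate, chosen after seeing the data, it gave 476 (389 higher, which is 81.7%, against 62.4% higher over all tiles). The cause was not tested. Tiles found anew from rows measured on both strands, also chosen after seeing the data, gave 376 in kindling (5.04%, of all tiles 5.65%) and 251 in kainic acid (3.36%, of all tiles 3.47%).

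With the replicate number as a block, which left 5 residual degrees of freedom, the counts were 601 in kindling, 398 in kainic acid, 501 for the mean and 471 for the difference between models, and 0 tiles were called. These are 6.89, 4.56, 5.74 and 5.40% of the low-methylated tiles, each above the 5.81, 4.08, 4.64 and 4.78% of all tiles. The labels do not say that a number pairs rats. Deviations of same-numbered rats from their group means had an r of −0.111 to 0.155 in kindling and −0.0418 to −0.0156 in kainic acid. Rats of unlike number gave −0.3255 to 0.249 in kindling and −0.123 to 0.133 in kainic acid. So few pairs cannot decide whether numbers pair rats. A coverage minimum could not be varied, since the table holds no reads.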
